A study of Mus musculus with 2 samples.

Results

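The regions described here are the peaks of RNA held by Usp39 that lie on mouse chromosome 19, 4356 of the 35104 peaks that the deposited list places on the 19 autosomes. They were chosen by the chromosome named for each peak. Chromosome 19 was selected on its measured share of the peaks, so its peak density is given as a description and supports nothing. The peaks come from RNA immunoprecipitation with sequencing (RIP-seq) of AML12 cells, a mouse hepatocyte line first made from a mouse transgenic for human TGF-alpha. Both groups carried a doxycycline-induced vector for FLAG-Usp39, were grown with dexamethasone, insulin, transferrin and selenium, and were induced for 72 h before 5 min of cross-linking and isolation of nuclei. The Input group was 1 library without antibody, and the IP group was 1 library of RNA held on anti-FLAG magnetic beads. The files analysed here hold no replicate libraries. The study mentions independent experiments for this assay, and how these relate to the peak list is unknown. No library of cells without the tagged protein was analysed here, and the tagged protein was made from a vector in addition to the cells' own. No p-value was computed between groups or chromosomes.

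The list gives for each peak a position on the mm10 genome, a p-value from the peak caller used by the authors, a location class and the gene named for it. It holds no read count, so the depth is unknown and no peak could be set against Input or against the abundance of its RNA. It runs over the chromosomes in 2 passes of 17990 peaks each, and 2202 of the chromosome 19 peaks stood in the first pass and 2154 in the second. What the passes are is not stated, so they are shown side by side and are not called replicates. Intervals are 95% Wilson intervals unless named otherwise. They cover counting error only and treat peaks as independent, although neighbouring peaks and both passes share transcripts, so they are too narrow.

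Usp39 works with the tri-snRNP of U4, U5 and U6, which joins an intron already marked by U1 and U2 and carries the small nuclear RNAs of the catalytic core. Usp39 resembles a ubiquitin protease but lacks the residues for catalysis, and it is needed for the tri-snRNP to join the spliceosome. Introns are removed largely while the RNA is still in the nucleus, so RNA from nuclei holds both unspliced and spliced sequence. In hepatocytes, mouse chromosome 19 is known for the stearoyl-CoA desaturase genes, the fatty acid desaturase genes, the Cyp2c cluster of drug-metabolising enzymes and the nuclear RNAs Neat1 and Malat1.

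Most peaks filled a single bin of 100 bases, and 173 such bins of chromosome 19 were called in both passes. Of these, 126 lay in introns or coding exons of the named gene with no UTR base. The sequences below are the strongest of these for the 6 genes with most peaks that had one, so that the intronic and exonic letters behind the largest groups can be read. They are from the RefSeq copy of the GRCm38.p6 genome, which has the coordinates of mm10, on the strand of the gene, 5′ to 3′, in lower case because none holds either hexamer searched.
Glis3, intron 2, chr19:28634801-28634900, minus strand: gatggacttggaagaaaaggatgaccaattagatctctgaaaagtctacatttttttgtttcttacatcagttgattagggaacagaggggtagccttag
Myof, intron 23, chr19:37952301-37952400, minus strand: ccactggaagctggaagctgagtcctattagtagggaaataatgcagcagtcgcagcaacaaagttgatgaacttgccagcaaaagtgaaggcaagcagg
Ablim1, intron 18, chr19:57045901-57046000, minus strand: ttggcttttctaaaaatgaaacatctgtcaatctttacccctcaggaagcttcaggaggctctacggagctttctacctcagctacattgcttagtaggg
Nt5c2, intron 4, chr19:46904201-46904300, minus strand: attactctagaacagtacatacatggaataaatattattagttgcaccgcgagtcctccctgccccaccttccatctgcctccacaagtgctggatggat
Slc16a12, intron 2, chr19:34681101-34681200, minus strand: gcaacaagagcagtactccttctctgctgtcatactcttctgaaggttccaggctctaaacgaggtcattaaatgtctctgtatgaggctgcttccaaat
Chka, exon 8, chr19:3890201-3890300, plus strand: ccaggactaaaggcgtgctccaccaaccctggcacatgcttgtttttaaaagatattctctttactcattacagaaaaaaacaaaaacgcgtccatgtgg

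The hexamers GGCCAC and GCCAUA are the words the study names as motifs of its peaks. Of the 126 shared bins, 4 held GGCCAC and 2 held GCCATA, the DNA spelling of the latter. The 5 shown next are the 3 strongest with GGCCAC and both with GCCATA, with the hexamer in capitals.
Cemip2, exon 3, chr19:21792701-21792800, plus strand: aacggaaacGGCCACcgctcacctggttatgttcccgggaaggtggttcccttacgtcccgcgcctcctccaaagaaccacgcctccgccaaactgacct
Ablim1, intron 6, chr19:57132001-57132100, minus strand: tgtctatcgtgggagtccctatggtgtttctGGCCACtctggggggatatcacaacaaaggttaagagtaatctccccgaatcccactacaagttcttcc
Glis3, intron 4, chr19:28434901-28435000, minus strand: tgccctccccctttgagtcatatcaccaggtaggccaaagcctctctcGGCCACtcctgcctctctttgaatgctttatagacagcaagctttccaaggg
Fads2, intron 4, chr19:10086801-10086900, minus strand: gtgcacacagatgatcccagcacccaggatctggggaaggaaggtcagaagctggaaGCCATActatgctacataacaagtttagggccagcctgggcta
Fads2, intron 1, chr19:10100001-10100100, minus strand: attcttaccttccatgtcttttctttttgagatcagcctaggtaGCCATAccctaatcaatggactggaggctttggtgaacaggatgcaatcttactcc

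Chromosome 19 held 12.4% of the autosomal peaks on 2.49% of the autosomal sequence. It carried 70.9 peaks per Mb, and the next autosomes were chromosome 15 with 28.2 and chromosome 11 with 27.9, while the median of the other 18 autosomes was 11.5 and the lowest, chromosome 14, had 5.13. The other autosomes pooled had 12.8 peaks per Mb, 5.54-fold fewer. Glis3, which encodes a Krüppel-like zinc finger transcription factor, took 778 of the peaks, 17.9% of the chromosome. Without it 3578 peaks were left, 58.2 per Mb, 4.55-fold the pool and 2.07-fold chromosome 15. The position of chromosome 19 at the top of the order was therefore not set by Glis3 alone.

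**Figure D1:**
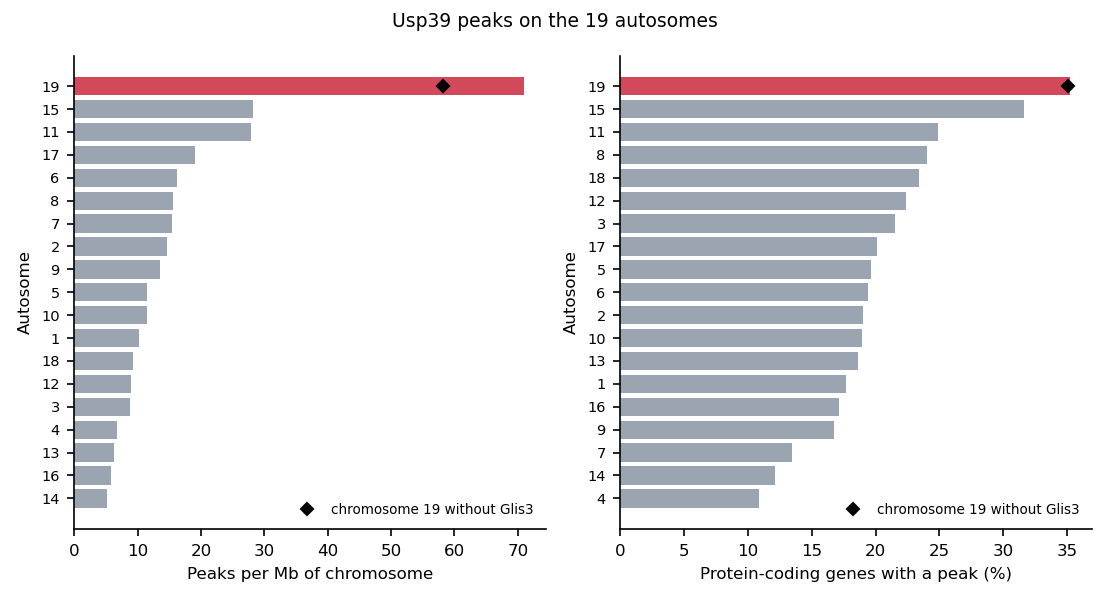
Peaks per Mb of chromosome (left) and the percent of protein-coding genes that at least 1 peak overlaps (right) for each of the 19 autosomes, ranked, with chromosome 19 in red and its value without Glis3 as a black diamond. On the left, 70.9 (58.2 without Glis3) stands well apart from 28.2 on chromosome 15, and on the right 35.2% stands close to 31.6% on chromosome 15.

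Gene content did not give the same order. Chromosome 19 had 11.7 annotated protein-coding genes per Mb, behind chromosome 7 with 13.9 and chromosome 11, and it had 6.06 peaks per protein-coding gene (4.98 without Glis3), against 3.73 on chromosome 15. Over the 19 autosomes the correlation of peaks per Mb with protein-coding genes per Mb was r = 0.52 (Spearman's rho 0.64), and over the 18 without chromosome 19 it was r = 0.57 (rho 0.59). These points share 1 peak list, and the correlation is a description. Per Mb of annotated gene sequence chromosome 19 had 135 peaks, against 61.4 on chromosome 15. With peaks that overlap or lie within 100 bases joined into sites there were 2099 sites, 34.2 per Mb against 15.3 on chromosome 11, and 1210 of the sites were held by both passes. The peaks covered 608.8 kb, 0.991% of chromosome 19, against 0.157% of the other autosomes.

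Peaks reached a larger share of the protein-coding genes on chromosome 19 than on any other autosome. At least 1 peak overlapped 253 of its 719 protein-coding genes, 35.2% (31.8 to 38.7%), against a background of 19% of 20088 protein-coding genes on the other autosomes. At least 10 peaks overlapped 86 of them, 12%, against 3.5% elsewhere. Chromosome 15 came next in both, with 31.6% and 9.43%. The number of genes reached, 253, was rank 4 of the autosomes, and their median of 4 peaks per gene was shared by other autosomes. Of the 253 genes, 201 were overlapped in both passes and 44 by a single peak, and 466 protein-coding genes had none. The gap between chromosome 19 and chromosome 15 was thus 2.52-fold in peaks per Mb and 1.11-fold in the share of genes reached. These shares rest on the same calls that chose the chromosome and are descriptions.

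The excess was larger in introns than in exons. By the middle of each peak, chromosome 19 had 97.6 peaks per Mb of intron, 2.78-fold chromosome 15 with 35.2, and a median of 13.1 over the other autosomes. Per Mb of exon it had 439 peaks, 1.29-fold chromosome 15 with 339.9. Outside genes it had 7.39 per Mb, 1.53-fold chromosome 11 with 4.84. Without Glis3 the intron value was 71.7 and the exon value 433, which were 2.04-fold and 1.27-fold chromosome 15. Intron and exon here are those of the GENCODE annotation.

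In the deposited location classes, introns held 2557 of the chromosome 19 peaks, 58.7% (57.2 to 60.2%), against 39.6% (39.0 to 40.1%) on the other autosomes. Exons held 659, 15.1% (14.1 to 16.2%), against 25.1% (24.6 to 25.6%). The 3' UTRs held 712, 16.3% (15.3 to 17.5%), against 19.9% (19.5 to 20.4%), and distal intergenic sequence held 195, 4.48% against 9.02%. Promoters held 120 peaks and 5' UTRs 108, and 5 lay downstream of a gene. Chromosome 19 had the highest intron share and the lowest exon share of the 19 autosomes.

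Glis3 set part of this pattern. Without its peaks the intron share was 50.2% (48.6 to 51.9%), behind chromosome 17 with 50.8%. The exon share, 18.3% (17.0 to 19.5%), was still the lowest, just under chromosome 6 with 18.6%. The 3' UTR share became 19.6% (18.4 to 21.0%), which cannot be told apart from 19.9% at this number of peaks, so the low 3' UTR share of the chromosome rested on Glis3. Of the 86 genes with at least 10 peaks, 38 (44.2%, 34.2 to 54.7%) had most of them in introns, against 254 of 703 (36.1%, 32.7 to 39.7%) elsewhere, and these intervals overlap. Of the 253 genes with a peak, 137 (54.2%, 48.0 to 60.2%) had one in an intron, against 45.3% (43.8 to 46.9%) of 3816.

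**Figure D2:**
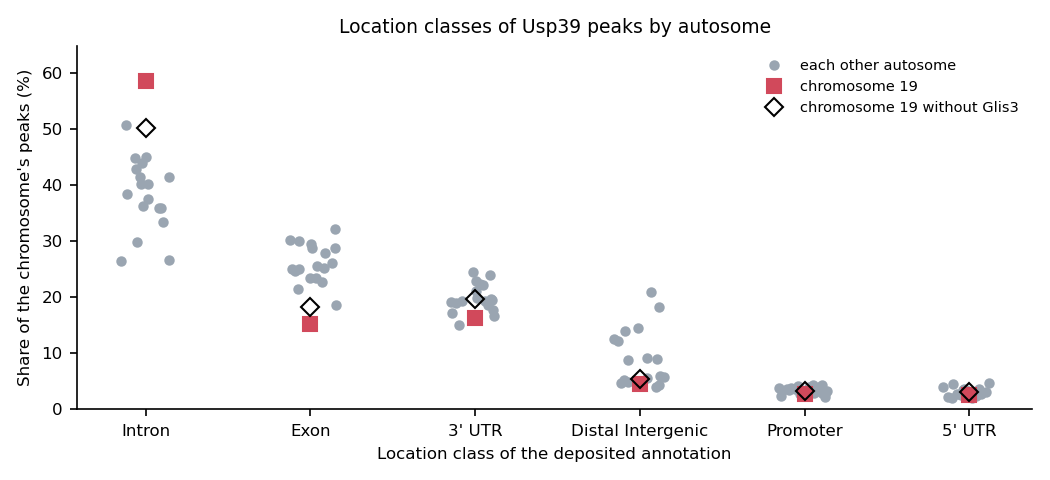
Share of each autosome's peaks (percent) in 6 location classes of the deposited annotation, with each of the other 18 autosomes as a grey point, chromosome 19 as a red square and chromosome 19 without Glis3 as an open diamond. Chromosome 19 lies above all other autosomes for introns (58.7%) and below all for exons (15.1%), and without Glis3 it moves into the range of the others for introns (50.2%) and 3' UTRs (19.6%).

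The intron peaks of chromosome 19 were less often in first introns. First introns held 415 of them, 16.2%, against 33.7% (32.8 to 34.5%) on the other autosomes, and 23.1% (21.2 to 25.1%) without Glis3, none of whose peaks were classed there. Splice sites, the exon borders that the spliceosome joins, were also less often close. Of 4046 peaks in genes with several exons, 11.6% (10.7 to 12.6%) had a 5' splice site within 100 bases and 11.8% (10.8 to 12.8%) had a 3' splice site that close, against 16.2% (15.8 to 16.7%) and 16.2% (15.7 to 16.6%) elsewhere. Both shares were rank 17 of 19 from the highest. The lowest autosome was chromosome 18 at 5' sites with 10.7% and chromosome 1 at 3' sites with 11.1%. Without Glis3 the shares of chromosome 19 were 14.2% (13.0 to 15.4%), rank 16, and 14.6% (13.4 to 15.8%), rank 13. At 3' splice sites that interval overlapped the interval of the other autosomes.

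Peak strength, the −log10 of the peak caller's p-value, did not set chromosome 19 apart. Its median was 3.69, against 3.63 on the other autosomes, and 3.63 without Glis3. A p-value of 1e-05 or less was reached by 543 peaks, 12.5% (11.5 to 13.5%), a smaller share than the 14.5% (14.1 to 14.9%) of the other autosomes. The classes differed in this, with 33.3% against 21.9% of promoter peaks, 15.6% against 14.1% of 3' UTR peaks and 8.76% against 8.63% of intron peaks at that limit, and lower shares in exons (19.3% against 19.9%), 5' UTRs (15.7% against 19.8%) and distal intergenic sequence (12.3% against 21.6%). Peaks wider than 1 bin made up 24.8% (23.5 to 26.1%), the highest of the 19 autosomes, against 20.9%. Without Glis3 they made up 23.9%, behind chromosome 4 with 24.3%.

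Peak sequence was poorer in G and C. The mean GC content was 47.7%, the lowest of the 19 autosomes, against 49.6% in the other peaks, while the chromosome as a whole has 42.7%. Without Glis3, whose peaks had 44.9%, it was 48.4% and no longer the lowest, at rank 16 from the highest. Chromosome 3 was then the lowest with 48.2%. Among intron peaks alone the mean GC content on chromosome 19 was 45.4% against 46.9%. Repeat-masked letters made up 15.7% of peak sequence against 18.3%, and 31.0% of the whole chromosome.

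The hexamers were searched in 4134 peaks, on the strand of the named gene where the peak lay in it. Other peaks were searched only where all overlapped genes shared a strand. Some of the peaks searched can therefore also lie over a gene of the other strand. GGCCAC stood in 191, 4.62% (4.02 to 5.30%), against 5.05% (4.80 to 5.31%) of 27604 peaks elsewhere. GCCATA stood in 118, 2.85% (2.39 to 3.41%), against 1.88% (1.72 to 2.04%). Among intron peaks GCCATA was in 3.02% (2.42 to 3.76%) against 1.94% (1.71 to 2.20%), with 3.24% when Glis3 was left out. Wide peaks hold more letters, and among peaks of a single bin the intervals overlapped, with 1.67% (1.27 to 2.18%) on chromosome 19 against 1.38% (1.23 to 1.54%) elsewhere. On either strand GCCATA was in 4.61% of peaks against 4.40% elsewhere, a smaller gap. In the single-bin peaks GGCCAC was in 2.73% (2.21 to 3.36%) against 3.54% (3.31 to 3.80%). A match is a run of letters and not a shown site of contact.

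Along the chromosome the peaks were unevenly placed. Of 62 windows of 1 Mb, 15 had no peak, 14 had at least 100 and held 76.2% of the peaks, and 7 windows were enough for 50% of them. The windows up to chr19:3000000 held no protein-coding gene and no peak. They count among the 15, among the first 12 windows below and in the rho at the end of this paragraph. The window from 28 to 29 Mb held 778, all of them over Glis3. The next held 369 around Pax2, with 92 over its body, and Scd3 with 51. The first 12 windows, in which 292 protein-coding genes lie at least in part, held 1435 peaks, 32.9%. The longest run between neighbouring peaks was 5325.2 kb (chr19:47644801-52970000) with 10 protein-coding genes, followed by 1948.1 kb and 1891.2 kb. Over the windows the number of peaks followed the number of protein-coding genes with rho 0.66, a description over windows of 1 chromosome.

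**Figure D3:**
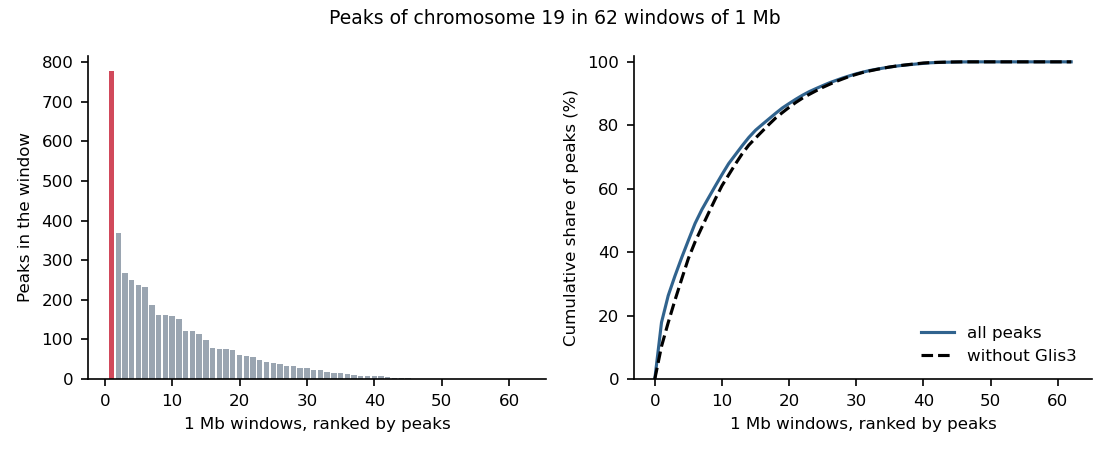
Peaks in each of the 62 windows of 1 Mb on chromosome 19, ranked (left, the Glis3 window in red), and the cumulative share of peaks over the ranked windows (right, with and without Glis3). The Glis3 window with 778 peaks is followed by 369, and the curves with and without Glis3 lie close to each other past the 10 fullest windows, which hold 64.5%.

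Peaks also crowded at a finer scale. Fixed stretches of 10 kb with at least 10 peaks held 62.8% (61.3 to 64.2%) of the chromosome 19 peaks, against 37.9% on the other autosomes and 48.2% on chromosome 15, the next highest. A fixed limit of 10 peaks is passed more easily where peaks are denser. This share therefore depends on the density that chose the chromosome and is not a separate trait. Among peaks at 1e-05 or less the shares were 7.55% and 7.54%, so the difference was not seen there. Without Glis3 the share was 57.0%. There were 138 such stretches, led by 60 genes, and 23 of them lay in Glis3. The fullest was in Glis3 with 48 peaks, 26 in the first pass and 22 in the second. The next was at the Rbm4 locus, with 47, of which 25 stood in the first pass.

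Peaks were named for 295 genes, with a median of 5 per gene (quartiles 2 and 12), and 19 genes were enough for 50% of the peaks. The 10 genes with most peaks held 39.5% of them, rank 7 of the 19 autosomes, and 28.3% without Glis3, rank 16. Both values lay within the range of the other autosomes, from 19.9% to 47.6%. Of the 25 genes with most peaks in the whole list 5 lay on chromosome 19, and of the 100 with most 16 did. Chromosome 19 genes made up 5.88% of all genes named in the list. These ranks rest on the same peak counts that chose the chromosome, so they are descriptions. Both passes named 232 of the 295 genes, and the 63 named in 1 pass had at most 3 peaks each. Counts per protein-coding gene correlated between the passes with r = 0.997 (rho 0.87, 253 genes with a peak), and r = 0.985 without Glis3. Single peaks overlapped less, since 35.6% of first-pass peaks were overlapped by a second-pass peak and 36.5% the other way.

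Glis3 held 398 peaks in the first pass and 380 in the second, 2.56-fold the count of the next gene of the list, which had 304. The counts of the passes were close. The gene spans 421.2 kb (chr19:28258851-28680077, minus strand), and its peaks covered 21.5% of that span in 300 joined sites, 220 of which were held by both passes. Introns held 760 of the peaks, exons 6, 3' UTRs 10 and promoters 2. In the transcript the list uses most, with 10 introns, intron 2 held 287 peaks and intron 4 held 430. Together these introns had 2.40 peaks per kb over 298.3 kb, and the other 8 had 43 peaks, 0.372 per kb over 115.4 kb. The peaks of Glis3 were thus not evenly spread over its introns. They were of common strength, with a median of 3.73 and 71 (9.13%) at 1e-05 or less.

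Myof, which encodes myoferlin, a ferlin of membrane repair, had 78 peaks in the first pass and 79 in the second. Introns held 125, over 32 of 52 introns of its main transcript, with 15 in intron 16 at 4.03 per kb. Exons held 25. Ablim1, for an actin-binding LIM protein, had 74 and 64, with 108 in introns and 36 of them in intron 6. Nt5c2, for a cytosolic purine nucleotidase, had 56 and 54, of which 84 lay in introns and 45 in intron 3 alone, at 2.35 per kb. Over the full annotated span of 131.8 kb its peaks began 49.5% of the way along in the direction of transcription. The introns of its main transcript add up to 78.9 kb, so this value does not give the position within that transcript. Slc16a12, a member of the monocarboxylate transporter family, had 55 and 51, with 89 in introns and a peak in each of its 6 introns. Intronic peaks were thus the main class in all of these genes.

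Other leading genes showed mixed classes. Mgea5, the annotation's name for the O-GlcNAcase gene Oga, had 40 and 39 peaks, with 48 in introns and 19 in exons. Rtn3, for a reticulon of the endoplasmic reticulum, had 35 and 38, and Smc5, of the SMC5/6 complex that guards chromosomes, had 38 and 28. In Ltbp3, which encodes a binding protein of latent TGF-beta, 25 of 40 peaks lay in exons and 3 in introns, with 21 and 19 in the passes. The lipid transfer protein gene Vps13a had 27 and 25, 39 of them in introns, and Ppp6r3, for a regulatory subunit of protein phosphatase 6, had 26 and 24, with 41 in introns. In the histone demethylase gene Kdm2a, with 20 and 17, introns held 17 and 3' UTRs 11. Exon-led genes such as Ltbp3 were thus found beside intron-led ones.

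**Figure D4:**
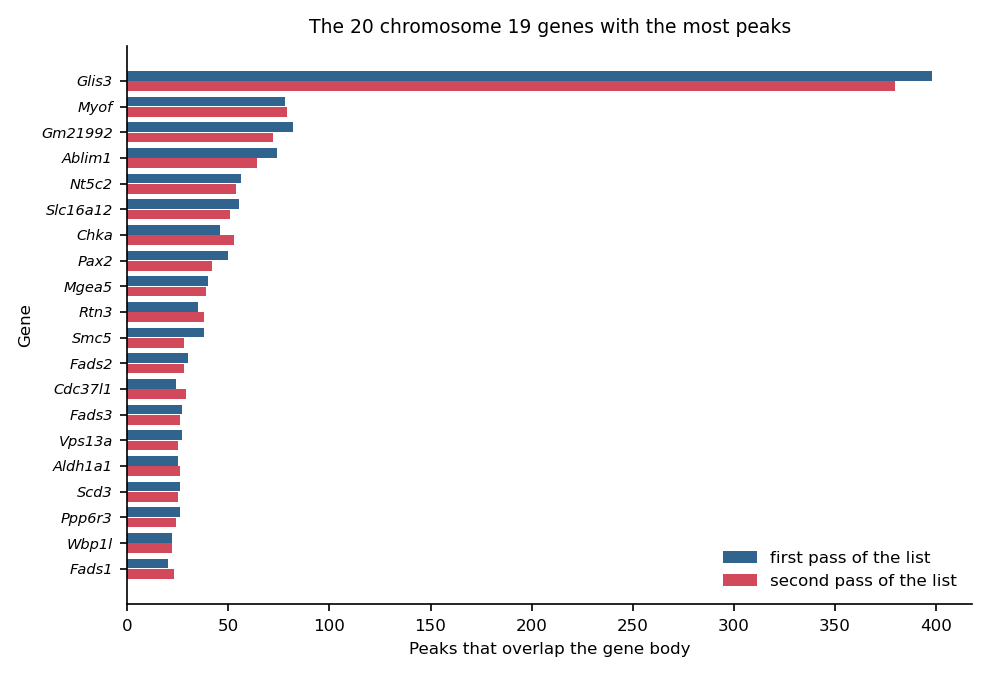
Number of peaks that overlap each of the 20 chromosome 19 genes with most peaks, in the first (blue) and second (red) pass of the list. Glis3 has 398 and 380, the other genes lie between 20 and 82 in each pass, and within each gene the passes lie close together.

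Genes of fatty acid and lipid metabolism made up a large group. The list is mostly of synthesis, and it also holds Cpt1a of fatty acid oxidation, the lipoprotein receptor gene Vldlr and the lysosomal lipase gene Lipa. Of its 18 genes on the chromosome 14 had a peak (77.8%, exact binomial 52.4 to 93.6%), 12 of them in both passes and 8 with at least 10 peaks, beside the 35.2% and 12% of all protein-coding genes of the chromosome. The list was written with earlier results of these data known, so its count is a description. Chka, choline kinase alpha, which starts the synthesis of phosphatidylcholine from choline, had 46 and 53 peaks over 42.6 kb (chr19:3851773-3894369, plus strand). They covered 47.9% of the gene, with 48 peaks in introns and 37 in exons, and 59.6% of them were wider than 1 bin. The Chka bin printed above, classed as exon in the list, was called in both passes. Repeat-masked letters made up 72% of it.

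The fatty acid desaturases, which insert double bonds into polyunsaturated fatty acids, were all hit. Fads2 had 30 and 28 peaks, 46 of them in introns, and intron 7 with 15 had 4.10 per kb. Both of the Fads2 bins with GCCATA shown above lie in its introns. Fads3 had 27 and 26, and Fads1 had 20 and 23 and was covered over 47.2% of its 13.99 kb. The peaks per kb of gene were 3.07 in Fads1, 2.86 in Fads3 and 1.49 in Fads2. These genes lie side by side and are related in sequence, and how the mapping divided reads among them was not tested.

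The stearoyl-CoA desaturases, which make monounsaturated fatty acids, differed in where their peaks lay. Scd3 had 26 and 25 peaks, 42 in introns and all of these in introns 1 and 2. Scd2 had 21 and 17, which covered 84.9% of its 13.2 kb, and its median strength of 5.69 was well above the 3.69 of the chromosome. Scd1 had 12 and 11, none in introns, 6 in exons and 14 in 3' UTRs. Scd4 had 0 and 1. A peak over exon 2 of Scd2 (chr19:44294901-44295100) stood in both passes with the smallest p-value of the list, 5.24e-15. The Scd genes are near copies of each other, so counts of single members are uncertain. Gpam, the mitochondrial acyltransferase that starts glycerolipid synthesis, had 8 and 10, with 13 of 18 in 3' UTRs. Elovl3, Pcx, Dagla and Lipa had none.

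The listed genes for cytochromes P450 and hepatocyte products had few peaks. Of these 23 genes 3 had a peak (13.04%, exact binomial 2.78 to 33.6%), beside 35.2% of all protein-coding genes of the chromosome. However, 14 of the 23 belong to the Cyp2c cluster. The interval treats these neighbours as independent, so it is too narrow and does not show a depletion. Not every cytochrome P450 of the list is a gene of the liver, and the list was written with earlier results of these data known. All 14 Cyp2c genes looked up, the canalicular transporter gene Abcc2, the retinol carrier gene Rbp4 and Cyp26a1 were at 0. How the mapping treated reads shared among the Cyp2c genes was not tested. Aldh1a1, a retinaldehyde dehydrogenase, had 25 and 26 peaks, 48 in introns. All lay past 72.6% of the full annotated span in the direction of transcription, and their position within single transcripts was not tested. Gldc, of the glycine cleavage system, had 7 and 8, and Got1, an aspartate aminotransferase, had 2 and 2. Elsewhere in the genome the peaks over hepatocyte markers were 14 over Krt8 and 16 over Krt18, and Alb, Ttr, Apoa1, Apoa2, Apob, Apoe, Serpina1a and Hnf4a had none. Of the 5 mesenchymal markers Vim had 8 and Col1a1, Col1a2, Acta2 and Tagln none, and 4 immune, 4 endothelial and 3 neuron markers had none. Without a count table the part of RNA level in these differences was not tested.

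The listed genes of splicing and mRNA processing were all hit. A peak overlapped 12 of 12 (exact binomial 73.5 to 100%), 11 in both passes and 4 with at least 10 peaks, beside 35.2% and 12% of all protein-coding genes of the chromosome. The list was written with earlier results of these data known and need not hold every such gene, so its count is a description. Rnaseh2c, by its name a ribonuclease H2 gene, fits the title of the list only loosely. It counted as hit with 1 and 0 peaks in the passes. Sf1, which binds the branch point of introns, had 18 and 21 peaks that covered 47.4% of 14.3 kb, with 15 in introns, 11 in 3' UTRs and 7 in promoters. Rbm4b had 18 and 15, none in introns, and Rbm4 had 15 and 13; both encode RNA-binding regulators of splicing. Cpsf7, of the cleavage and polyadenylation machinery, had 8 and 9. Sf3b2, of the U2 particle, had 5 and 4, Sart1, of the tri-snRNP pathway, had 2 and 1, and Prpf19 had 1 and 1. The Rbm4 locus as a whole (chr19:4742913-4811612) had 82 and 72 peaks over Gm21992, a read-through gene that spans Rbm4 and most of Rbm14 on its own strand and Rbm4b on the other. Strand is not given for peaks, so these genes cannot be told apart where they overlap.

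**Figure D5:**
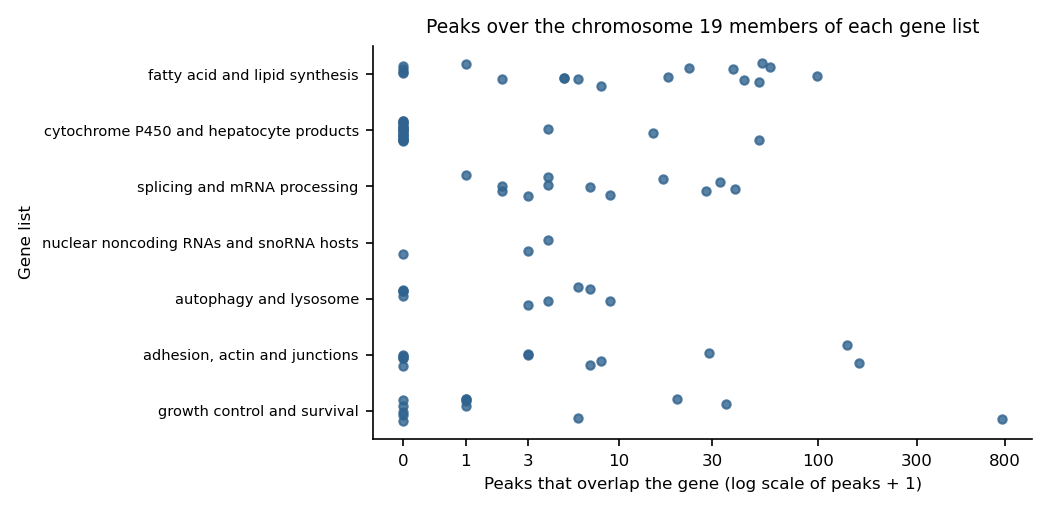
Number of peaks over each chromosome 19 member of 7 gene lists, on a log scale of peaks + 1, with each point a gene. All 12 listed splicing and mRNA processing genes have at least 1 peak, 20 of the 23 listed cytochrome P450 and hepatocyte product genes stand at 0, and Glis3 with 778 is the point at the far right of growth control and survival.

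Adhesion and actin genes were split. A peak overlapped 7 of 12 (58.3%, exact binomial 27.7 to 84.8%), beside 35.2% of all protein-coding genes of the chromosome, an interval that holds this background. Among them were Myof, Ablim1 and Ahnak, which encodes a giant scaffold protein and had 13 and 16 that covered 22.02% of it. Anxa1, a phospholipid-binding annexin, had 5 and 3, while Actn3, Afap1l2, Add3, Sorcs1 and Pdlim1 had none. Of 13 growth control genes 8 had a peak (61.5%, exact binomial 31.6 to 86.1%), 4 of them in both passes, and this interval also holds 35.2%. Esrra, a nuclear receptor of energy metabolism, had 10 and 10, and Bad, a death-promoting member of the Bcl2 family, had 2 and 4. Nfkb2, Rela, Kank1 and Cdc42bpg had 1 peak each, and Fas, Tcf7l2, Dusp5, Jak2 and Men1 had none over the gene body.

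Of the autophagy and lysosome genes a peak overlapped 5 of 9 (55.6%, exact binomial 21.2 to 86.3%), each in both passes and none with 10 or more. The chromosome's background was 35.2% with a peak, which this interval holds, and 12% with at least 10. The proton pump subunit Tcirg1 had 4 and 5, Vps37c of the ESCRT-I complex had 4 and 3, Vps51 of the GARP tether had 2 and 2 and the lipid transfer protein gene Atg2a had 1 and 2. Bad, named above, is also in this list. Lipa, Ctsf, Ctsw and Rab3il1 had none.

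The nuclear noncoding RNAs were marked by width and not by number. Neat1, which builds paraspeckles, was overlapped by 1 peak in the first pass and 2 in the second, and these covered 99.6% of it. The first-pass peak was 20700 bases wide, the widest of the chromosome, and the second-pass peaks were 10500 and 10100. Malat1, of nuclear speckles, had 2 and 2 with 98.97% covered and widths up to 6800. The widest peaks of Ahnak, 10100 and 7100 bases, stood between those of Neat1 and Malat1 in width. Snhg1, a host of small nucleolar RNAs, had none. A count of peaks therefore understates genes covered by 1 broad peak, and the counts per gene given above are not levels.

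The smallest p-value of the list was shared by 385 peaks, 22 of them on chromosome 19. The 10 widest of the 22 lay over Neat1, Malat1, Scd2, the ferritin heavy chain gene Fth1, Fau, which encodes a ribosomal protein fused to a ubiquitin-like protein, the kinase gene Grk5 and Pdzd8. The Pdzd8 peak, 300 bases wide, lies over Rps12-ps3, a pseudogene of a ribosomal protein gene, and reads of the parent gene were not separated from it. Per kb of gene, the highest values were over small loci, with 5.21 peaks per kb over Gm37206, 4.63 over AC122442.1, 3.65 over AC138457.1 and 3.33 over Fth1. The list named no peak for Gm37206, AC122442.1 or AC138457.1. Gm37206 lies inside Rbm4b on the other strand, and peaks carry no strand, so its peaks count for both genes.

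Some peaks did not lie over the gene whose name they carry. The body of the named gene held 3538 peaks, 81.2%, another annotated gene held 610, 14.0%, and no GENCODE gene held 208, 4.78%, against 8.83% on the other autosomes. Rbm4 and Rbm4b were named for 78 and 70 peaks, and 28 and 33 overlapped them. All 27 peaks named for Cyp17a1, a steroid hydroxylase, and all 28 named for Slc22a8, an organic anion transporter, lay in other genes. MicroRNA genes were named for 192 peaks, of which 2 touched the microRNA gene itself. Of the 122 peaks named for Pax2, a paired-box factor of kidney development, 65 were in no GENCODE gene (33 and 32 in the passes), upstream of its start at chr19:44722601-44755800, and 24 of these lay in the RefSeq model of Pax2. Of the 29 named for Malat1, 25 were in no gene (13 and 12), within chr19:5786801-5823500, on both sides of the gene and ending where peaks named for Neat1 begin.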

How the data were processed

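The data were 1 deposited peak list and 1 deposited table of peaks per gene from 1 Input and 1 IP library. The authors trimmed reads with Trim Galore (0.6.1), checked them with FastQC (0.11.9), removed ribosomal reads with Bowtie (1.2.3), and mapped to mm10 with HISAT2 (its version is given only for the RNA-seq). Their peak caller was Piranha, with 100-base bins and a limit of 0.001. The p-value in the deposited list is the authors' own, and the sources do not say if Input was part of the calling. The number of peaks per gene in the deposited table is a count made by the authors, and it equals the count in the list for all 5004 genes.

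Peaks were set against GENCODE genes of mm10 in Python 3.11.15 with pandas 2.3.3 and scipy 1.17.1. A peak counted for a gene at 1 base of overlap, whatever the strand. Strength was −log10 of the deposited p-value. Near 5' and 3' splice sites meant within 100 bases of the peak, over transcripts of several exons. Intervals used scipy's Wilson or exact method at 95%. The functions were tested on simulated peaks with known answers. No test between groups was made, since each group is 1 library and the columns name no sample. No p-value other than the deposited ones was used.

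Genes named are the 25 with most named peaks, those of the 10 smallest p-values (ties by width, then position) and 10 widest peaks, the 10 densest per kb (5 peaks or more), the 2 with most peaks in each of the 10 fullest windows of 1 Mb, and up to 4 members with most peaks and 2 without from each list. Cemip2, Sart1, Prpf19, Vps51, the further members named at 0 or at low counts and the genes named for their peaks outside genes were chosen after their values were seen. The members and the 7 gene lists were chosen with earlier results of these data known. Of the listed genes, Plaat3, Cyp2c44, Cwf19l2, Tpcn2 and Ccnd1 were not found on chromosome 19 under that symbol.

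The alternatives left out Glis3 by name or position, took each pass alone, set a p-value limit of 1e-05, joined peaks within 100 bases, left out the 10 leading genes of chromosome 19 and the 10 of the other autosomes, changed the denominator, weighted genes equally, used an own overlap annotation, searched hexamers on either strand or kept single-bin peaks. Leaving out Glis3 for the splice-site shares was added after the data were seen. Results of some listed genes are not reported here.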

Additional observations from a re-analysis of the deposited data

How the results depend on the processing

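Chromosome 19 stayed the autosome with most peaks per Mb, or per other unit, under all 10 alternatives of that value. It was 35.8 in the first pass alone, 35.1 in the second, 8.84 at p-values of 1e-05 or less, 34.2 for joined sites and 42.9 without the 10 leading genes of chromosome 19 and the 10 of the other autosomes, and it was 135 per Mb of gene sequence and 6.06 per protein-coding gene. Its share of autosomal peaks was 10.4% without Glis3 by name or by position, 10.9% at the stricter limit (10.86%), 10.9% for joined sites and 8.37% without the leading genes, where chromosome 11 had 10.8%. Its genes overlapped by a peak were 31.02% in the second pass alone and 15.4% at the stricter limit.

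Without Glis3, by name or by position, introns held 50.2%, exons 18.3% and 3' UTRs 19.6%, dense stretches held 57.0%, and 14.2% and 14.6% of peaks lay near a 5' and a 3' splice site. Without the leading genes introns held 44.6%, exons 19.2%, 3' UTRs 23.9% and dense stretches 46.2%, and median strength was 3.61. At the stricter limit introns held 41.3%, exons 23.4%, 3' UTRs 20.4% and dense stretches 7.55% (7.54% on the other autosomes, rank 7 for chromosome 19), and median strength was 5.76, by construction of the limit. With joined sites 3' UTRs held 15.2% (15.15%), dense stretches 20.1% and median strength was 3.73. Dense stretches held 36.6% in the first pass alone and 40.02% in the second, each with fewer peaks. With genes weighted equally introns held 31.6%, exons 25.8% and 3' UTRs 27.98%, and the own annotation gave 63.6% for introns and 14.2% for 3' UTRs. The 3' UTR share was thus above that of the other autosomes at the stricter limit (19.3% there), without the leading genes (21.1%) and with equal weights (26.6%), and the cause was not tested. The exon share was below that of the other autosomes in every alternative run. The hexamer GCCATA was in 4.61% of peaks on either strand (4.40% on the other autosomes) and 1.67% of single-bin peaks, and GGCCAC in 9.50% (9.62%) and 2.73%.

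Of 71 alternatives 23 stayed within the counting interval of the value, or within 1.5-fold for peaks per Mb. Alternatives of peaks per Mb that changed the unit or kept fewer peaks could move for that reason alone. The count of 23 is therefore not a measure of how stable the results are. No paired analysis was possible because each group is 1 library. The depth is unknown, so genes without a peak cannot be called free of Usp39.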
